A study of Mus musculus with 6 samples.

Results

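The replication-dependent histone genes are the clustered genes that supply the core histones H2A, H2B, H3 and H4 and the linker histone H1 for packing newly made DNA. They were chosen by name, as genes whose current symbol has the form of an H1f1 to H1f5, H2ac, H2bc, H3c or H4c gene, or whose older symbol begins with Hist1h, Hist2h, Hist3h or Hist4h. The annotation holds 70 such genes, 63 by current symbol and 7 by the older symbol alone. Of the 70, 47 had a probe on the array and 45 were tested, among 15535 tested genes of 20659 with a probe. H2ac21 and H2bu2 had a probe that cleared the background on fewer than the 3 arrays needed for testing. No named probe was found for H2ac7, H2ac13, H2ac14, H2ac23, H2ac24, H2af-ps2, H2bc7, H2bc9, H2bc11, H2bc12, H2bc13, H2bc15, H2bu1-ps, H4bc24, H3c2, H3c6, H3c10, H3c14, H3c15, H4c1, H4c2, H4c6 and H4c18. Of the 45 tested genes, 40 were well above background on all 6 arrays.

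Transcripts of these genes are made mostly in S phase, together with DNA synthesis, and most end in a conserved stem-loop in place of a poly(A) tail. NPAT and CASP8AP2 gather at histone gene clusters to drive their transcription and 3′ end formation, and the stem-loop binding protein SLBP carries the transcripts through processing, export and translation. Replacement histones, such as H3.3 and H2A.Z, come from separate genes with polyadenylated transcripts and are made throughout the cell cycle. In osteoblasts, histone gene transcription has long served as a readout of proliferation, which slows as matrix-forming differentiation begins.

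RNA came from MC3T3-E1, a mouse pre-osteoblast cell line, kept for 3 days in 24-well plates on a scaffold. Cells of the FeMnSi group (n = 3), the reference, were on the original FeMnSi scaffold, and those of the De-HA group (n = 3) on a dealloyed scaffold with a bioactive coating. Labels do not say whether the samples of a group were separate cultures, so the spread behind each p-value may be that of technical repeats. Each RNA sample was amplified linearly, labelled with Cy3 and hybridised to 1 single-colour array. The primer of the amplification is not given in the sources used here, so that the efficiency with which transcripts ending in a stem-loop were copied, compared with polyadenylated ones, is unknown. Histone paralogs are near-identical in coding sequence and can share signal on a probe, so the value of a single gene may include its close copies. Scan times place De-HA 1, 2 and 3 and FeMnSi 1 on 1 slide (slide 1) and FeMnSi 2 and 3 on another. The De-HA mean minus FeMnSi 1 is given below as the value within slide 1. A fit with the slide as a block has that same value as its estimate, since the other slide held no De-HA array. Its calls therefore rest on FeMnSi 1 as the only reference array, FeMnSi 2 and 3 adding to the spread alone. The slide-blocked fit and the value within slide 1 are not separate checks. On the arrays 63.5% to 74.4% of probes were well above background, and no spot was saturated. Signals are linear intensities brought to a common 75th percentile on every array, called scaled signals here, and each log2 fold change is De-HA minus FeMnSi with its standard error (SE).

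The promoters of 5 members are shown to set genes that passed beside relatives that did not: H3c8, H3c11 and H4c17 passed the test as lower in De-HA, while the H3 gene H3c4 and the linker gene H1f1 did not. Each run is 300 bases of RefSeq sequence in assembly GRCm38.p6, from 250 bases before the start of the gene to 50 after it, read 5′ to 3′ on the strand of the gene. The positions are chr13:23535168-23535467 on the plus strand for H3c8, chr13:21783348-21783647 on the minus strand for H3c11, chr13:21811496-21811795 on the plus strand for H4c17, chr13:23575513-23575812 on the plus strand for H3c4 and chr13:23763418-23763717 on the plus strand for H1f1. Capitals mark matches to the TATA box, searched as TATAA, and to the CCAAT box, searched as CCAAT, on both strands. A TATAA match on the other strand therefore reads TTATA. Other forms of the TATA box were not searched, and TTATA at -35 in H3c11 and -31 in H3c4 runs on into alternating T and A.
H3c8: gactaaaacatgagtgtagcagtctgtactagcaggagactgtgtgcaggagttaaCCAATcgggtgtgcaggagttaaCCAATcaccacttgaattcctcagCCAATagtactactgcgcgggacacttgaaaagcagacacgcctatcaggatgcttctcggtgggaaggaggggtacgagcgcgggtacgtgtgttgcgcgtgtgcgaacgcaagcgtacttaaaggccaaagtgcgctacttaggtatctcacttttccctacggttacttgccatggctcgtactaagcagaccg
H3c11: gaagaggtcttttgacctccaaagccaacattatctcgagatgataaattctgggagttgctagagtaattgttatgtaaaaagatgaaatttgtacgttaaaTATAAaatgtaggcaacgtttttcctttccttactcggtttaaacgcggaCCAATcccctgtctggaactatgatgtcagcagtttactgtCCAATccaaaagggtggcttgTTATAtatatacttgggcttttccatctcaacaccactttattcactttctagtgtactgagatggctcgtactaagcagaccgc
H4c17: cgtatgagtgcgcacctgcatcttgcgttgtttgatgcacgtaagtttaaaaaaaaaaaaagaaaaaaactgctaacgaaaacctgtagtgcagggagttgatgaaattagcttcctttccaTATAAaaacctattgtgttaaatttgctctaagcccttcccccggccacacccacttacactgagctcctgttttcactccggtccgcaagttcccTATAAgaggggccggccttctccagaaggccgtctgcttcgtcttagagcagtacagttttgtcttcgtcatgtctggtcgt
H3c4: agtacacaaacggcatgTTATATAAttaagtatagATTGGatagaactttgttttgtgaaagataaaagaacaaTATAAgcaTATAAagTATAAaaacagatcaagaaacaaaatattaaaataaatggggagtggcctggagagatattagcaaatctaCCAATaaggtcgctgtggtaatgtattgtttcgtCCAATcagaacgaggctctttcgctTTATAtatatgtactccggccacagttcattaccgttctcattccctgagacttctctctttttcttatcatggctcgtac
H1f1: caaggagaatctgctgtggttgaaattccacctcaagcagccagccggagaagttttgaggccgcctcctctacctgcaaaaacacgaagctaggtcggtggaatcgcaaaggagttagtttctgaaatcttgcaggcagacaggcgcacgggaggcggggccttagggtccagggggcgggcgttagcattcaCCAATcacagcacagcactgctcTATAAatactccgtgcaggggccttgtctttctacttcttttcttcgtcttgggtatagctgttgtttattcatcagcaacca

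The H3c11 window holds CCAAT at -97 and -56, TTATA at -35 and TATAA at -147 from the start, and the H1f1 window holds CCAAT at -56 and TATAA at -33. The H4c17 window holds TATAA at -32 and -128 and no CCAAT. The H3c8 window holds 3 CCAAT matches, at -194, -171 and -147, and no TATAA. In the H3c4 window CCAAT lies at -90 and -56 and TTATA at -31, with further matches upstream. H3c8, H3c11 and H4c17 thus differ in the motifs they hold, and H3c4, which did not pass, has CCAAT and TTATA close to the places where H3c11 has them.

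Across the family, 62 of the 70 genes had 63 promoters in the RefSeq table, and H3c1 was not among them. TATAA was found on either strand in 79.4% of these promoters against 24.9% of all 32851 promoters of the same length, and CCAAT in 85.7% against 37.4%. CCAAT was present in every H1, H2A, H2B and H3 promoter in the table, but in 3 of 12 H4 promoters. AAACACA, the H1 box, was found in 5 of 6 H1 promoters against 7.18% of all promoters, and H1f1 was the H1 gene without it. ATTTGCAT, the octamer, was found in 7 of 18 H2A and 7 of 17 H2B promoters against 1.74% of all, and in none of the H1, H3 or H4 promoters. TATA matches on the 2 strands can overlap each other, as they do upstream of H3c4, and the windows printed hold no H1 box or octamer. These letter matches describe the sequences and do not show that a factor was bound.

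In the family as a whole, 6 of the 45 tested genes were lower in De-HA at an adjusted p under 0.05 in limma with Benjamini-Hochberg adjustment over all genes, and none was higher. The 6 were H3c1, H3c8, H3c11, H4c17, H2ac8 and H2ac22, and 5 of them had fitted differences of at least 2-fold, counting H3c1, whose measured bound is smaller. H3c1 cleared the background on the FeMnSi arrays alone, so being lower was set by its entry to the test and its call adds no support. The 6 make up 13.3% of the tested members, where 4.31% of all tested genes passed as lower, 6.37% as higher and 10.7% in either direction. At an unadjusted p under 0.05 there were 17 of the 45 members, 14 lower and 3 higher. In either direction 5238 of the 15535 tested genes reached that level. Estimates were below 0 for 34 members (75.6%) against 36.7% of all genes. The groups did not overlap for 18 members (40%, against 39.6% of all genes), 15 of them lower in De-HA (33.3%, against 13.4%) and 3 higher, against 26.2%. The median log2 fold change of the members was -0.21, or -0.19 within slide 1, where all genes had medians of 0.10 and 0.059. Thus most members lay below the median of all genes, but 36 of the 45 differed by less than 0.5 on the log2 scale.

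The scaling of the arrays bears on these numbers. After quantile normalization the median of all genes moved from 0.10 to 0.0022, that of the members was -0.33, and 10 members passed as lower. Among those 1658 genes 59.7% were higher in De-HA. That share was 43.5% on quantile-normalized values, 41.3% on the authors' series matrix, 37.3% when scaled by the median and 68.2% after normexp. Normexp is a background correction, run here with an offset of 50 added to every signal, which draws differences of dim probes towards 0. No member passed as higher under any of these 5 scalings. The sign was the same under all 5 for 37 members and differed for H1f3, H2ac1, H2ac18, H2bc18, H2bc22, H2bc3, H4c3 and H4c8. Estimates of these genes lay between -0.18 and 0.11 in the main fit. Over the scalings they reached -0.38 (H2bc3, quantile normalization) and 0.21 (H2ac1, normexp). In the fit that blocks on the slide 3 members passed as lower, where 0.554% of all genes did (1.25% in either direction). These were H3c8, H3c11 and H3c1, the last with the limit given above.

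**Figure D1:**
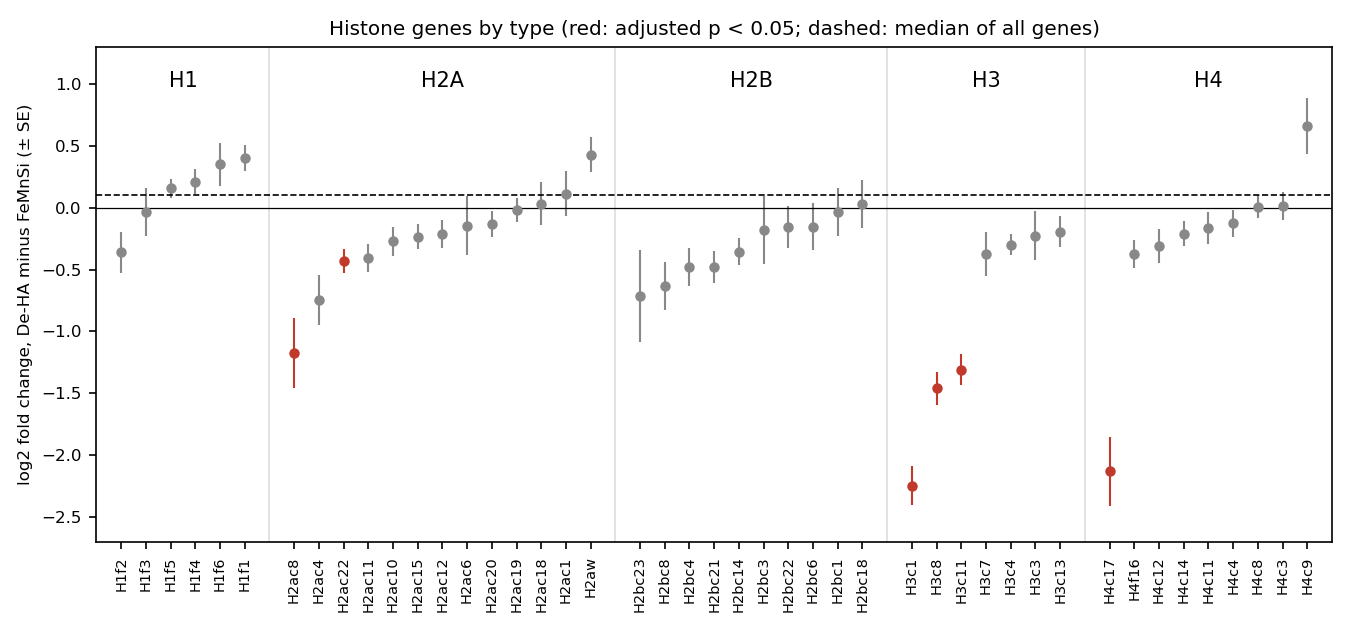
Log2 fold change, De-HA minus FeMnSi, of the 45 tested histone genes by histone type, with bars of 1 SE (3 arrays per group) and the median of all tested genes as a dashed line at 0.10. The 6 genes in red passed an adjusted p of 0.05 and lie below 0, 3 of them H3 genes (H3c1 at its fitted value, from De-HA signals not well above background), while 4 of the 6 H1 genes lie above 0.

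H3, which forms the centre of the nucleosome together with H4, had 7 tested genes. Of these 3 passed as lower (42.9%, against 4.31% of all genes), among them H3c1 with the limit given above. All 7 estimates were below 0, also under each of the 5 scalings. The H3 median was -0.37, or -0.24 within slide 1. The count of H3 genes past the test was 3 to 4 over the scalings, and that of H2A genes, described below, 2 to 4. Over the same scalings 1222 (median scaling) to 2042 (normexp) of all genes passed in either direction.

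H3c8 encodes the replication-dependent variant H3.1. Its scaled signals were 75.7, 94.0 and 68.8 on the De-HA arrays in order and 202, 227 and 222 on the FeMnSi arrays. All De-HA arrays lay below all FeMnSi arrays, and all 6 were well above background. The fall was 2.75-fold (log2 fold change -1.46 ± 0.13 SE, limma adjusted p = 0.00325), with -1.36 within slide 1 and an adjusted p of 0.0376 with the slide as a block.

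H3c11, also an H3.1 gene, gave scaled signals of 35.3, 27.3 and 34.9 in De-HA and 83.9, 73.8 and 82.7 in FeMnSi. The groups lay apart by more than the whole range within either of them. The fall was 2.48-fold (-1.31 ± 0.13 SE, limma adjusted p = 0.00406), with -1.38 within slide 1 and an adjusted p of 0.0363 with the slide as a block. Normexp, whose offset of 50 shrinks differences at such low signals, gave -0.46 for H3c11 (limma adjusted p = 0.0143) and -0.89 for H3c8 (limma adjusted p = 0.000516). Smaller values were thus set in advance by the offset, and the part of the background estimate itself was not tested.

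H3c1, the third H3.1 gene tested, gave scaled signals of 5.21, 7.71 and 5.91 in De-HA and 27.3, 29.0 and 32.1 in FeMnSi. None of the De-HA signals was well above background, whereas all FeMnSi signals were. The lowest signals that cleared the background were 22.9, 12.1 and 13.2 on the De-HA arrays, which bounds the difference at 1.91-fold or more. The fitted value of -2.25 ± 0.16 SE (limma adjusted p = 0.00143, -2.14 within slide 1) is not a measured fold change, because it rests on signals below that floor. With those signals raised to the floor it was -0.93 with a limma adjusted p of 0.0510, and with normexp -0.26 with a limma adjusted p of 0.0767, so the call is lost under both. The normexp value is small by construction, since the offset of 50 exceeds every scaled signal of H3c1.

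The 4 other tested H3 genes, H3c3, H3c4, H3c7 and H3c13, encode H3.2, which differs from H3.1 at a single amino acid. H3c4 gave scaled signals of 7592, 7792 and 8272 in De-HA and 9322, 10158 and 9642 in FeMnSi. Its groups did not overlap, but the difference did not pass (-0.30 ± 0.085 SE, limma adjusted p = 0.0664, -0.24 within slide 1), and it passed after quantile normalization, where it was -0.47. H3c7 gave 2000.4, 1794 and 1806 in De-HA and 1933, 3141 and 2309 in FeMnSi, and H3c3 gave 3240.5, 3185 and 3058 in De-HA and 2723, 4781 and 3864 in FeMnSi. FeMnSi 1 lay among the De-HA arrays for H3c7 and below them all for H3c3, and the values within slide 1 were -0.05 and 0.21 against pooled values of -0.37 and -0.22. H3c13 was at -0.19 (95% confidence interval -0.49 to 0.11).

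Grouped by RefSeq synonyms, taken here to mean the same protein, the H3.1 genes H3c8 and H3c11 passed as lower, while none of the 4 H3.2 genes did. The H3.2 genes ran from -0.37 to -0.19 with a median of -0.26. H3c1, the third tested H3.1 gene, also passed, but it met the filter through the FeMnSi arrays alone. H3c1 is left out of what follows, since it was not well above background in De-HA. This grouping was chosen after the values were seen and is a description without a test. On each array the mean log2 deviation of H3c8 and H3c11 minus that of the H3.2 genes was -0.51, -0.60 and -0.56 for De-HA and 0.74, 0.33 and 0.60 for FeMnSi. The difference between the groups was -1.11, with -1.30 within slide 1. It was -1.09 to -1.11 under the other scalings but -0.39 after normexp. There H3c1, at -0.26, lay within the H3.2 range of -0.35 to -0.21. The normexp offset of 50 shrinks the dim H3c1, H3c8 and H3c11 far more than the bright H3.2 genes. By the array values above, all De-HA arrays were on the low side and all FeMnSi arrays on the high side, FeMnSi 1 on the slide of the De-HA arrays being the highest. Scaled signals were 27.3 to 227 for H3c8 and H3c11 and 1159 to 10158 for the H3.2 genes. Encoded protein and probe brightness therefore cannot be told apart here.

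**Figure D2:**
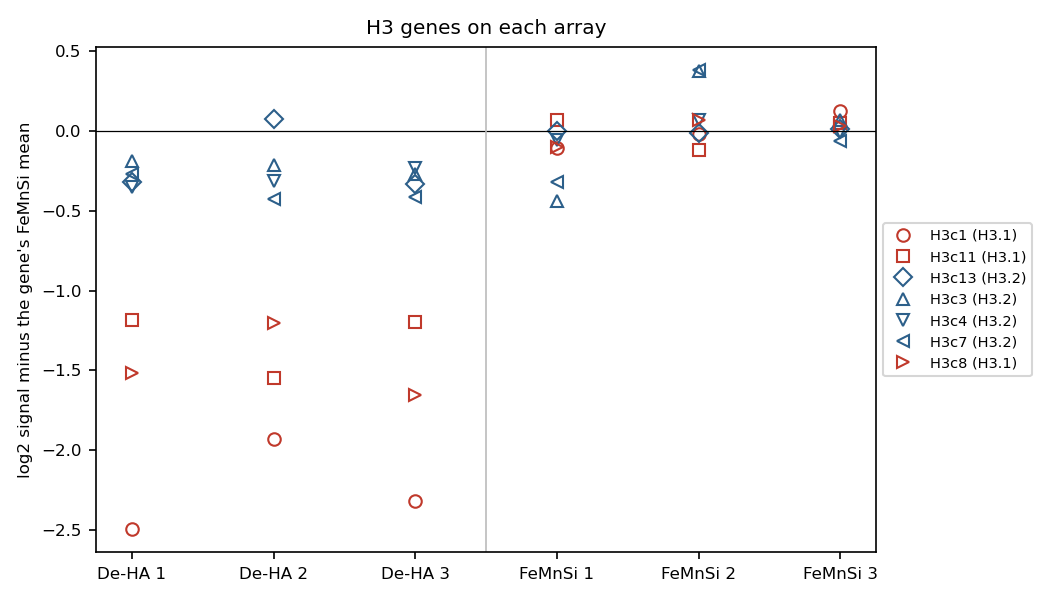
Log2 signal of the 7 tested H3 genes on each of the 6 arrays, relative to the mean of the gene over the FeMnSi arrays, with H3.1 genes in red and H3.2 genes in blue. On every De-HA array H3c8 and H3c11 lie between -1.66 and -1.18 and the 4 H3.2 genes between -0.43 and 0.08, and the lower De-HA points of H3c1 are signals not well above background, so that their depth is not a measured size.

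Among the 9 tested H4 genes 1 passed as lower (11.1%, against 4.31% of all genes). The genes were linked by RefSeq synonyms, taken here to mean the same protein, and the group linking the others did not hold H4c17. Of the estimates 6 were below 0, with a median of -0.17 (-0.15 within slide 1). The gene that passed was H4c17. Its scaled signals were 22.2, 40.1 and 18.8 in De-HA and 95.9, 122 and 120 in FeMnSi, and the De-HA 1 signal was not well above background. All De-HA arrays lay below all FeMnSi arrays, and De-HA 2 stood above the other De-HA arrays. The fitted fall was 4.38-fold (-2.13 ± 0.28 SE, limma adjusted p = 0.0102) and -1.91 within slide 1. After normexp, with its offset of 50, it was -0.91 (limma adjusted p = 0.000915), so its size too depends on that setting. It missed the threshold in the slide-blocked fit (adjusted p = 0.0820) and without FeMnSi 3 (adjusted p = 0.0516).

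None of the other H4 genes passed. H4f16, on chromosome 6, gave scaled signals of 208, 249 and 201 in De-HA and 270.1, 272 and 306 in FeMnSi (-0.37 ± 0.11 SE, limma adjusted p = 0.0791, -0.31 within slide 1), with the groups apart. H4c12 was at -0.31, H4c14 at -0.21, H4c11 at -0.17 and H4c4 at -0.12. For H4c8 and H4c3 the estimates were 0.01 and 0.02, with 95% confidence intervals of -0.21 to 0.23 and -0.25 to 0.28. H4c9 had the highest estimate of the family at 0.66 ± 0.23 SE (limma adjusted p = 0.102). Its scaled signals were 397, 385 and 331 in De-HA and 340.5, 196 and 192 in FeMnSi, so that FeMnSi 1 lay among the De-HA arrays, the value within slide 1 was 0.12, and a second probe also gave 0.12. The second probes of H4c12 and H4c14 gave -0.09 and 0.31, the latter with the opposite sign.

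H2A, which pairs with H2B on the flanks of the nucleosome, had 13 tested genes. Of these 2 passed as lower (15.4%, against 4.31% of all genes) and 10 had estimates below 0. The H2A median was -0.21 (-0.25 within slide 1). H2ac8 gave scaled signals of 132, 78.1 and 86.6 in De-HA and 152, 290 and 231 in FeMnSi. The groups did not overlap, but De-HA 1 and FeMnSi 1 lay close together. The fall was 2.25-fold (-1.17 ± 0.28 SE, limma adjusted p = 0.0461), and within slide 1 it was -0.66. The slide-blocked fit gave it an adjusted p of 0.311, and of the 6 fits without 1 array it passed only in the fit without FeMnSi 1.

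H2ac22 gave scaled signals of 2565, 2659 and 2459 in De-HA and 3422, 3776 and 3186 in FeMnSi, with all 6 arrays well above background and the groups apart. The fall was 1.35-fold (-0.43 ± 0.096 SE, limma adjusted p = 0.0385), with -0.42 within slide 1. The slide-blocked fit gave an adjusted p of 0.184, and H2ac22 too passed in 1 of the 6 fits without 1 array, the fit without FeMnSi 1. H2ac11 gave 3670, 4078 and 3377 in De-HA and 5028, 5261 and 4438 in FeMnSi, a difference close in size to that of H2ac22 (-0.41 ± 0.11 SE) that did not pass (limma adjusted p = 0.0626). H2ac4 gave 249, 295 and 233 in De-HA and 542, 322 and 461 in FeMnSi (-0.74 ± 0.20 SE, limma adjusted p = 0.0605), with the highest FeMnSi signal on slide 1 and -1.07 within it. Both passed under some other settings, H2ac11 after quantile normalization and H2ac4 with median scaling.

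The remaining H2A genes ran from -0.27 for H2ac10 to 0.43 for H2aw, the single tested member on chromosome 11. H2aw gave scaled signals of 759, 1004 and 928 in De-HA and 749, 587 and 660.4 in FeMnSi (0.43 ± 0.14 SE, limma adjusted p = 0.0927, 0.25 within slide 1). Its groups lay apart by a narrow gap between De-HA 1 and FeMnSi 1. H2ac1, which encodes a testis histone H2A, was dim, with De-HA 1 and FeMnSi 1 not well above background, and its estimate of 0.11 was -0.12 after quantile normalization.

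Of 10 tested H2B genes none passed at an adjusted p of 0.05 in limma, and 4 had an unadjusted p under 0.05 (5238 of all 15535 genes did). Estimates were below 0 for 9 of the 10, with a median of -0.27 (-0.24 within slide 1). H2bc21 gave scaled signals of 36.3, 33.8 and 41.8 in De-HA and 44.9, 56.6 and 54.2 in FeMnSi (-0.48 ± 0.13 SE, limma adjusted p = 0.0602, -0.27 within slide 1). H2bc14 gave 226, 226 and 229 in De-HA and 261, 331 and 282 in FeMnSi (-0.35 ± 0.11 SE, limma adjusted p = 0.0792, -0.20 within slide 1). After quantile normalization and in the series matrix 2 H2B genes passed as lower, H2bc21 (-0.61 and -0.62) and H2bc4 (-0.61 and -0.62), and after normexp H2bc4 passed (-0.49) while H2bc21 was at -0.10. Of all genes 1579 passed after quantile normalization (43.5% of them higher) and 1569 in the series matrix (41.3% higher). After normexp 2042 did (68.2% higher). In H2bc21 and H2bc14 the groups lay apart, and FeMnSi 1 was the FeMnSi array closest to De-HA.

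H2bc4, H2bc6 and H2bc8 are linked by RefSeq synonyms and were at -0.48, -0.15 and -0.63. H2bc4 gave 3339, 3558 and 4901 in De-HA and 5619, 5014 and 5595 in FeMnSi, with De-HA 3 close to FeMnSi 2 (limma adjusted p = 0.0901). H2bc23 had the lowest H2B estimate at -0.71 but also the widest spread, with 279, 209 and 513 in De-HA and 384, 466 and 737 in FeMnSi (SE 0.37, limma adjusted p = 0.209). Its groups overlapped. H2bc1, which encodes a testis histone H2B, was at -0.03 (95% confidence interval -0.50 to 0.43).

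H1, the linker histone that binds DNA between nucleosomes, was the type with estimates mostly above 0. None of its 6 tested genes passed, and 1 had an unadjusted p under 0.05 (5238 of all 15535 genes did). Of the estimates 4 were above 0, with a median of 0.18 (0.21 within slide 1, 0.11 after quantile normalization). This median was 0.0801 above that of all genes, where those of H2A, H2B, H3 and H4 were lower than it by between 0.27 and 0.475. H1f1 gave scaled signals of 49.8, 48.1 and 46.8 in De-HA and 33.9, 34.6 and 41.3 in FeMnSi, with the groups apart. Its difference of 0.40 ± 0.10 SE did not pass (limma adjusted p = 0.0552, 0.51 within slide 1, 0.26 after quantile normalization).

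H1f2, in contrast, had the lowest H1 estimate. It gave scaled signals of 3182, 3207 and 3834 in De-HA and 3498, 4502 and 5250 in FeMnSi (-0.36 ± 0.16 SE, limma adjusted p = 0.170). FeMnSi 1 lay between the De-HA arrays, and the value within slide 1 was -0.04. H1f5 gave 96.2, 95.8 and 98.3 in De-HA and 87.1, 88.9 and 84.2 in FeMnSi, a narrow separation of 0.16 ± 0.078 SE. H1f4 was at 0.21, H1f6, the testis linker histone, at 0.35 and H1f3 at -0.03, and their groups overlapped.

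**Figure D3:**
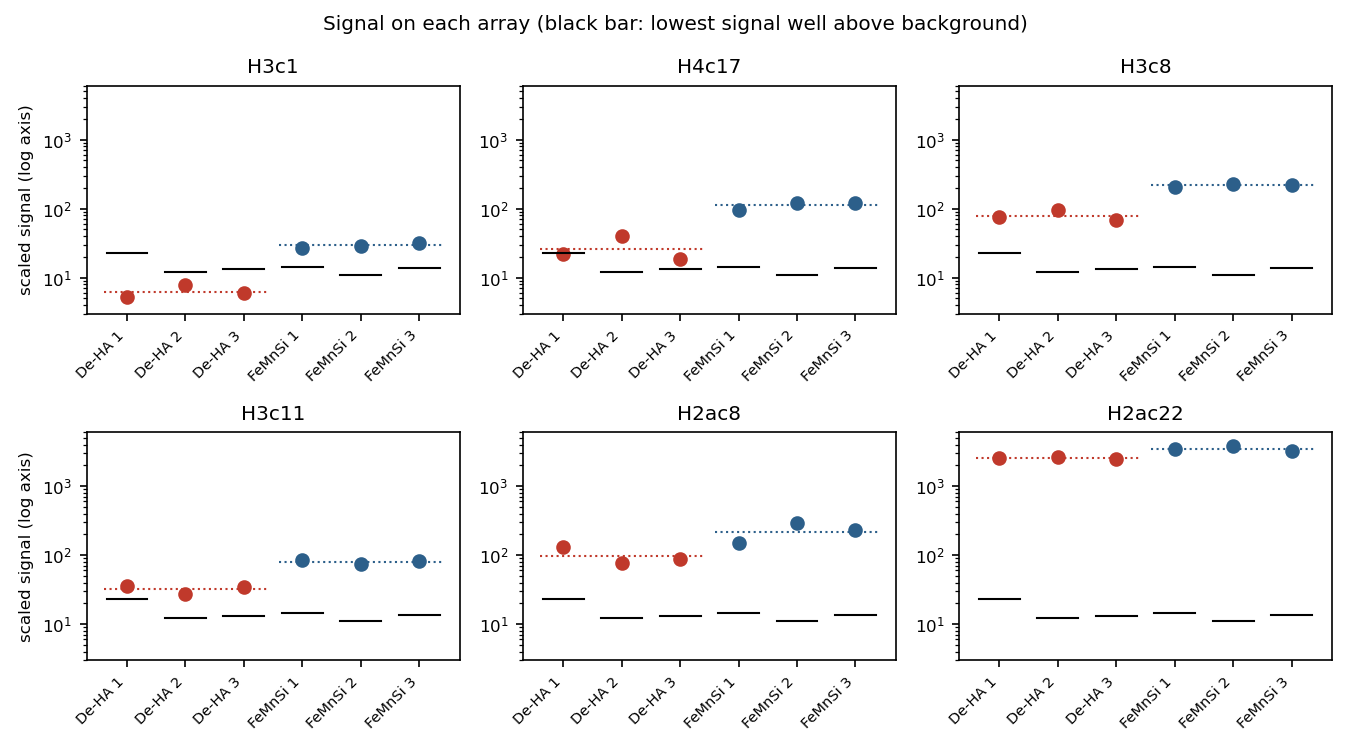
Scaled signal on each of the 6 arrays, on a log axis, of the 6 histone genes that passed an adjusted p of 0.05, with De-HA arrays in red, FeMnSi arrays in blue, group means as dotted lines and a black bar at the lowest signal that cleared the background of that array. H3c1 lies below the bar on all De-HA arrays, H4c17 on De-HA 1, and for H2ac8 the arrays De-HA 1 and FeMnSi 1 (132 and 152) are the closest pair of the groups.

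All 6 genes that passed lie on chromosome 13, which carries the largest histone cluster of the mouse and 36 of the 45 tested members. None of the 7 tested members on chromosome 3 passed, and their median was -0.13 against -0.23 on chromosome 13. In the order of protein-coding genes in the annotation, next neighbours often differed. H3c11 (-1.31) lies between H1f5 (0.16) and H2ac22 (-0.43), H3c1, at least 1.91-fold lower, lies beside H1f1 (0.40), and H3c8 (-1.46) beside H2ac10 (-0.27). H2ac8 and its neighbour H2bc8 were at -1.17 and -0.63, and H4c17 had no tested member next to it. Values of adjacent genes were therefore not uniform within the cluster.

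The array means show how the types differ between samples. Mean log2 deviations over all tested members, each from the mean of its gene over the 6 arrays, were -0.149, -0.153 and -0.175 for De-HA and 0.0929, 0.163 and 0.222 for FeMnSi. For H3, with H3c1 at its De-HA signals below background, they were -0.468, -0.359 and -0.481 in De-HA and 0.300, 0.542 and 0.467 in FeMnSi. For H2A and H2B the groups also lay apart, with De-HA arrays at -0.151 to -0.107 and -0.290 to -0.0427 and FeMnSi arrays at 0.0693 to 0.155 and 0.0278 to 0.283. The H4 means include H4c17 (-2.13, with its De-HA 1 signal not well above background). With it the H4 groups came close, at -0.298 to 0.0368 in De-HA and 0.0529 to 0.214 in FeMnSi. Means without H4c17 were not taken, so a separation of the other H4 genes is not shown. The H1 groups overlapped.

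**Figure D4:**
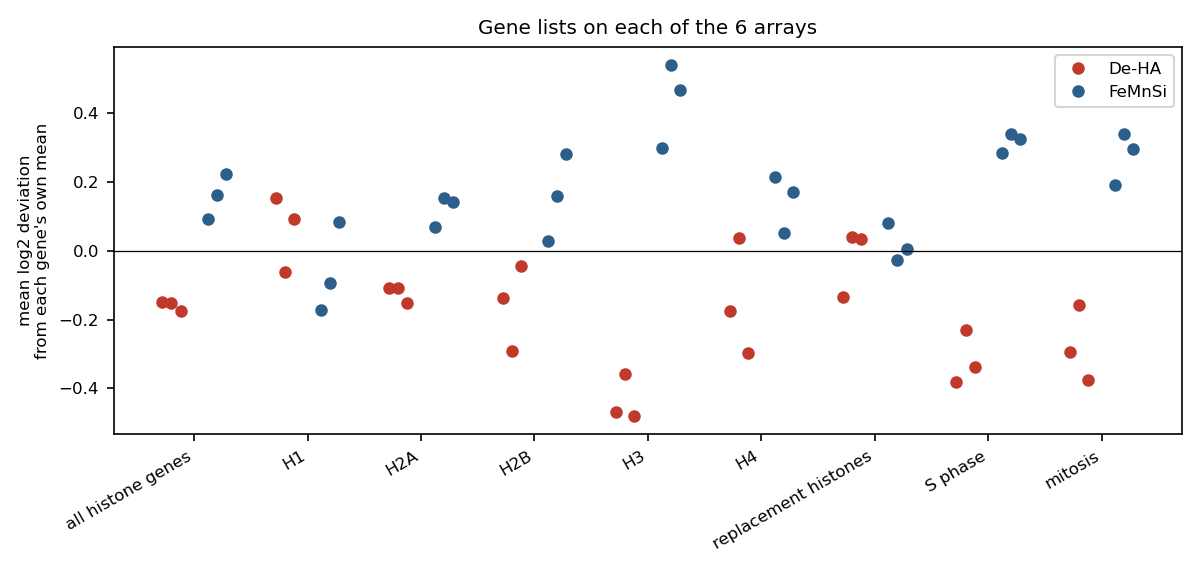
Mean log2 deviation of the tested genes of each list from their own means over the 6 arrays, 1 point per array (De-HA 1, 2 and 3, then FeMnSi 1, 2 and 3 from left to right). The De-HA arrays lie below the FeMnSi arrays for all histone genes, H2A, H2B, H3, H4, S phase and mitosis genes (for S phase at most -0.230 against at least 0.283), while the H1 and replacement histone points overlap.

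Genes that make histone transcripts had mostly small differences. Of 15 tested genes for histone transcription and 3′ end formation 2 were lower (13.3%, against 4.31% of all genes) and none higher, with a median of -0.02. Slbp, the stem-loop binding protein gene, was at -0.57 ± 0.11 SE (limma adjusted p = 0.0292, -0.41 within slide 1), and Casp8ap2 at -0.47 ± 0.084 SE (limma adjusted p = 0.0226, -0.40 within slide 1). Npat did not pass (0.36 ± 0.19 SE, limma adjusted p = 0.216, -0.06 within slide 1), nor did Lsm10 (-0.01) and Lsm11 (-0.02), subunits of the U7 particle that cleaves histone transcripts. In the slide-blocked fit neither gene passed (Slbp adjusted p = 0.189, Casp8ap2 0.137).

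Of 22 tested histone chaperone genes 5 were lower (22.7%, against 4.31% of all genes) and none higher, with a median of 0.02. Chaf1b and Chaf1a, subunits of the CAF-1 complex that places H3.1 and H4 on new DNA, were at -0.81 ± 0.11 SE and -0.56 ± 0.11 SE (limma adjusted p = 0.0116 and 0.0276, -0.67 and -0.69 within slide 1). Asf1b, which hands H3 and H4 to CAF-1, was at -0.92 ± 0.14 SE (limma adjusted p = 0.0140, -0.66 within slide 1). Tonsl, a reader of new H4, was at -0.53 ± 0.090 SE and Hat1, which acetylates new H4, at -0.65 ± 0.13 SE (limma adjusted p = 0.0188 and 0.0296). None of these 5 passed in the slide-blocked fit. Hira, Daxx and Atrx, which serve the replacement histone H3.3, were at 0.12, 0.11 and 0.15 and did not pass.

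The 11 tested replacement histone genes had a median of 0.07, against -0.03 within slide 1 and -0.12 on quantile-normalized values. Of these 11 genes 1 passed as lower (9.09%, against 4.31% of all genes). That gene was Cenpa, the centromeric H3, at -0.57 ± 0.14 SE (limma adjusted p = 0.0470, -0.40 within slide 1), and it did not pass in the slide-blocked fit (adjusted p = 0.295). H2ax, the damage-marking H2A whose transcript can also end in a stem-loop, was at -0.71 ± 0.19 SE and did not pass (limma adjusted p = 0.0614). The H3.3 genes H3f3a and H3f3b were at 0.07 ± 0.079 SE and 0.06 ± 0.10 SE, and H2az1 was at 0.04 ± 0.094 SE. On the arrays the replacement histones overlapped between the groups.

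S phase genes were lower in De-HA in larger number. Of 31 tested members 23 were lower (74.2%, against 4.31% of all genes) and none higher, with a median of -0.62 (-0.64 within slide 1). In the slide-blocked fit 6 passed, where 1.25% of all genes did in either direction. Gins1 and Mcm5, which act in the replicative helicase, were at -1.22 ± 0.11 SE and -1.01 ± 0.085 SE (limma adjusted p = 0.00305 and 0.00242, -1.04 and -1.06 within slide 1), and Mcm7 was at -1.01 ± 0.095 SE. Slbp is a member of this list as well. Of 16 mitosis genes 10 were lower (62.5%, against 4.31%) and 0 passed in the slide-blocked fit, with a median of -0.54 (-0.49 within slide 1), among them Kif11 at -0.73 ± 0.11 SE (limma adjusted p = 0.0139), Ccnb2 at -0.70 ± 0.11 SE (limma adjusted p = 0.0154) and Tpx2 at -0.80 ± 0.13 SE (limma adjusted p = 0.0188). The part of the S phase and mitosis genes in the histone values was not tested, and in bulk RNA fewer cells in S phase and less histone RNA per cell cannot be told apart.

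The labelled cell type was checked against osteoblast markers, all 6 of which were well above background on every array, with 4 higher in De-HA where 6.37% of all genes were. The summed scaled signal was 42970 to 57880 in De-HA and 33970 to 36340 in FeMnSi. Nearly all of that sum was Col1a1 (40758 to 55235 and 32262 to 34795), which did not pass (limma adjusted p = 0.0755) and was at 0.07 after quantile normalization. Markers of other cell types were higher in De-HA in 2 of 3 tested macrophage genes (Adgre1 at 0.78 and Ptprc at 0.56; summed signal 670 to 783 against 400 to 548), 1 of 2 endothelial genes (Kdr at 0.41), 1 of 2 skeletal muscle genes (Myod1 at 1.12) and 1 of 3 chondrocyte genes (Col2a1 at 1.11). Of all these markers Col2a1 was the one that passed in the slide-blocked fit. Among the other chondrocyte genes Sox9 was at 0.15 and Col10a1 at -0.26, the opposite direction, and neither passed. Neither tested adipocyte gene passed, Cfd being at 0.38 and Plin1 at 0.29. Cdh5, Tek, Adipoq, Lep, Myog, Ckm and Acan cleared the background on too few arrays to be tested, and Cd68 had no named probe. The part of these markers in the histone values was not tested.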

How the data were processed

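RNA from MC3T3-E1 cells on De-HA (n = 3) and FeMnSi (n = 3) scaffolds was read on 6 single-colour Agilent arrays. Per the submitters' processing notes, the scanner images were quantified with Agilent Feature Extraction, version 11.0.1.1. The intensity values used are background-subtracted and detrended linear signals, not scaled between arrays, per the file headers. The series matrix deposited by the authors holds log2 values per probe and was used only as an alternative; how it was made is not given in the sources used here. Each array had 44397 spots, 1377 of them controls.

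From each log2 signal the 75th percentile of that array's non-control, non-outlier spots was taken away. Outlier spots were left out, and repeat spots averaged. A probe was kept where it was well above background on 3 arrays or more (28380 of 39429, of which 205 were left out as outliers on some array). Probes were named through RefSeq transcript accessions (GRCm38.p6); 27234 had 1 gene and 12195 none. The brightest probe on average stood for a gene with several probes. The groups were compared with limma (version 3.58.1, R 4.3.3; lmFit, then eBayes with no trend) over all 15535 genes, with Benjamini-Hochberg adjustment and a threshold of 0.05. The fit was tested on simulated data. A gene not well above background in 1 group has a lower bound set against the lowest signals that cleared the background. The number of arrays limits the precision, as do signals near background and the uneven slides.

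Named by rule were members past the threshold, up to 2 members per histone type by smallest p, and up to 3 genes of each other list past the threshold, or 1 where none passed. Other members and list genes are named to account for the family, chosen with their values known. The members and lists were chosen with earlier results of these data known. Alternatives changed the scaling, background correction, filter, probe choice, outliers, variance model, block and arrays.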

Additional observations from a re-analysis of the deposited data

How the results depend on the processing

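Of 45 histone genes 6 were lower in De-HA, against 10 after quantile normalization, 10 in the series matrix, 3 in the slide-blocked fit and 0 on slide 1 alone, where 57 of all genes passed. In either direction 1658 of all genes passed in the main fit, 1579 after quantile normalization, 1569 in the series matrix and 194 with the slide as a block. Without 1 array the count of lower members ran from 3 (without FeMnSi 3) to 13 (without FeMnSi 1). In those 2 fits 240 and 4476 of all genes passed in either direction, so the member count moved with that of all genes. The count of higher members was 0, against 1 (H1f1) when all 6 arrays had to clear the background, where 2023 of all genes passed, 63.3% of them higher. It was 0 to 2 without 1 array, the 2 being H2aw and H4c9 without FeMnSi 1, where 68.5% of the 4476 genes were higher. The median of -0.21 was -0.30 with median scaling, -0.16 after normexp, -0.33 after quantile normalization and -0.35 in the series matrix, and -0.28 (without De-HA 2) to -0.19 (without FeMnSi 3) without 1 array. Other alternatives gave 4 to 9 lower genes.

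Replicate numbers are shared between the groups, but same-numbered arrays did not deviate together (r = 0.007, -0.106 and 0.115). The FeMnSi arrays were split over slides and the De-HA arrays were not. These values therefore cannot show whether the numbers pair the samples, and the main fit did not pair them. With a replicate block 4 members were lower (H3c1, H3c8, H3c11 and H4c17), among 648 genes of all.

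H2ac22 and H2ac8 lost their call in 9 of 19 alternatives each, H3c1 and H4c17 in 3 of 18 each (they were not tested where all 6 arrays had to clear the background), and H3c8 and H3c11 in 1 of 19 each, slide 1 alone; no member named by rule changed sign in any of them. H3c8 and H3c11 passed in all 6 fits without 1 array, as did H3c1, which met the filter through the FeMnSi arrays alone. Without the filter on dim probes 519 of all genes passed and 4 members. Normexp was run with an offset of 50 on the median spot signal. In it 7 aberrant local backgrounds on FeMnSi 3 were replaced by the array median, a form chosen after seeing the data. Signals near background limit H3c1 and H4c17. The sizes of H3c1, H3c8, H3c11 and H4c17 depend on the form of the background correction, its offset included. The comparison of H3.1 with H3.2 genes without H3c1 was added after seeing the data.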
